A study of Mus musculus with 61 samples.

Results

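Guanylate-binding proteins (GBPs) and immunity-related GTPases (IRGs) are interferon-inducible GTPases, and the levels of 10 of their genes are described here across all 61 mouse RNA-seq libraries of the study. The 10 genes, chosen by symbol from the 24421 genes counted in each library, were the GBP genes Gbp2, Gbp3, Gbp4, Gbp5, Gbp6 and Gbp7 and the IRG genes Irgm1, Irgm2, Igtp and Iigp1. All 10 were counted in every library, with at least 51 reads each, and all 10 entered every fit. The study asked how Y665F and Y665H, substitutions of STAT5B found in T cell leukemia, alter gene expression, where STAT5B is the transcription factor that relays interleukin-2 and interleukin-7 signals. Its libraries came from transduced CD4+ T cells, splenic T cells and spleens of mice aged 2 months, labelled C57BL/6, of which the Stat5b knock-in mice were made in C57BL/6N eggs.

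In the CD4+ experiment, naive cells from pooled lymph nodes and spleens were activated through the T cell receptor and CD28, transduced with a retrovirus, cultured with IL-2 and sorted for CD4 and the GFP of the vector. The cells were either WT or carried floxed Stat5a/b alleles deleted by Cd4-Cre, which removes both genes in CD4 and CD8 lineages from a thymic stage onward, and are called null cells below. Each background received 5 vectors, namely the empty vector or one with STAT5B, N642H (an established activating mutant), Y665F or Y665H, with 3 libraries per vector and background. The genotype field of the sample labels reads floxed Stat5a/b for all 30 of these libraries, so the background was read from the titles. Splenic T cells, enriched with a bead kit from WT mice and from mice homozygous for Stat5b Y665H (made by base editing) or Stat5b Y665F (made by CRISPR), and cultured with IL-2 and IL-7 (called IL below), gave 4 libraries per genotype. Y665F cells without interleukin, taken straight after isolation and not cultured, gave 3 libraries, and WT or Y665H cells without interleukin were not analysed here. Spleens, titled splenocytes in the labels, gave 4 WT, 5 Y665H and 7 Y665F libraries. The labels do not say which libraries came from separate animals or cultures, so the p-values measure the spread between these libraries, which may be technical in part.

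The reads on genes numbered 18825994 to 49850689 per library in CD4+ T cells, 2017012 to 27394249 in splenic T cells and 24203179 to 43330536 in spleens. Stat5b stood at 5.80 ± 3.21 CPM (SD, n = 3) in null cells with the empty vector and at 199 ± 13.2 CPM (SD, n = 3) in WT cells, where CPM are counts scaled to a common number of reads on genes, with TMM factors set within each of the 3 experiments. With the constructs, the null groups held 216 to 315 CPM of Stat5b on average. Cd8a, a marker of the other T cell lineage, stayed at or below 0.439 CPM in the CD4+ libraries described here, beside 630 to 1210 CPM of Cd4. Among the splenic T cell libraries, Y665F IL replicate 3 stood apart, with 712 CPM summed over 8 B cell markers and 1070 CPM over 8 erythroid markers, and replicate 4 followed with 200 and 84.8 CPM. The other 13 splenic T cell libraries held at most 99.1 CPM of the B cell markers and 58.8 CPM of the erythroid markers.

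In the GRCm38 annotation, Gbp2 (142620602 to 142638008), Gbp3 (142560026 to 142573209), Gbp5 (142493978 to 142522344) and Gbp7 (142530342 to 142550149) lie side by side on chromosome 3, all on the plus strand. Gbp4 (105115767 to 105139586) and Gbp6 (105270702 to 105293698) lie in the second GBP cluster on the minus strand of chromosome 5. Irgm1 (48861968 to 48871683, minus strand), Irgm2 (58199618 to 58222782) and Igtp (58199556 to 58207591, both plus strand) are on chromosome 11, and Iigp1 is on chromosome 18. Reads of such families can be shared. Of the 50-base words in the exons of Gbp6, 70.7% also occurred in other genes, chiefly Gm43302 (65%), which overlaps it and was not analysed here, and Gbp10 (45.9%), so the counts of Gbp6 are uncertain. The corresponding share was 12.7% for Gbp7, 11.8% for Igtp, whose exons share 162 bases with those of Irgm2, 7.77% for Irgm2, 7.7% for Gbp4 and at most 3.75% for the other 5 genes.

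Interferons signal from their receptors through JAK kinases to promoter elements of their target genes, the GAS elements of interferon-γ signalling and the interferon-stimulated response elements (ISREs), which IRF1 and related factors bind. GBPs are large GTPases that gather on vacuoles of intracellular pathogens and on bacteria and help to break them open, and Gbp5 also promotes inflammasome assembly. The IRGs divide into regulators on host membranes, Irgm1, Irgm2 and Igtp (also called Irgm3), and effectors such as Iigp1 (Irga6), which the regulators keep inactive until it loads onto a parasite's vacuole. The genes are best known from macrophages and fibroblasts, and T cells express them as well. STAT5 binds GAS elements as well.

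The stretches before the start sites of these genes are shown because GAS elements and ISREs are the sequences that the factors of interferon signalling bind. RefSeq promoters (GRCm38.p6, 250 bases before to 50 after the start) were matched by symbol for 7 of the 10 genes in 8 entries. An ISRE-type motif, GAAANNGAAA on either strand, was found in 7 of the 8 entries and in 3.44% of all 32851 promoters of this length. The GAS motif, TTCNNNGAA, was found in 4 of the 8 entries and in 8.3% of all promoters, and both motifs were found in 4 of the 8 and in 0.454% of all. Capitals below mark the matches to either motif.
Gbp2, chr3:142620413-142620712, plus strand: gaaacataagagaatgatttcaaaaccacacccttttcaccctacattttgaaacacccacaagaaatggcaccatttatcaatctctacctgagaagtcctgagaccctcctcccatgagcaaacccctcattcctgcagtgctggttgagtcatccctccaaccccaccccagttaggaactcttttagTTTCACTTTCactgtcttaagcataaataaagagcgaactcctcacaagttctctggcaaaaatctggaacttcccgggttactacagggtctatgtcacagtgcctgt
Gbp5, chr3:142496684-142496983, plus strand: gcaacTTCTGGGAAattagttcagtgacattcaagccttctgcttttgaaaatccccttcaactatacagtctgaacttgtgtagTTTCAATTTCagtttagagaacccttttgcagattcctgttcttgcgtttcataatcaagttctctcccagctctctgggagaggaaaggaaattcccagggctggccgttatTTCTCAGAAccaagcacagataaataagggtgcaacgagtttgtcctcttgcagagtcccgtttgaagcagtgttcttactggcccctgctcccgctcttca
Irgm1, chr11:48871371-48871670, minus strand: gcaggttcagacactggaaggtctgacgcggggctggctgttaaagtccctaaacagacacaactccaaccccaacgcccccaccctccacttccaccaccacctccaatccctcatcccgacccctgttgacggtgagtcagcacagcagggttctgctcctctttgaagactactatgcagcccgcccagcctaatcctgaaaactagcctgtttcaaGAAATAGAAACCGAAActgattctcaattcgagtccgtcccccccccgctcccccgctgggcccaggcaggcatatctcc
Irgm2, chr11:58214727-58215026, plus strand: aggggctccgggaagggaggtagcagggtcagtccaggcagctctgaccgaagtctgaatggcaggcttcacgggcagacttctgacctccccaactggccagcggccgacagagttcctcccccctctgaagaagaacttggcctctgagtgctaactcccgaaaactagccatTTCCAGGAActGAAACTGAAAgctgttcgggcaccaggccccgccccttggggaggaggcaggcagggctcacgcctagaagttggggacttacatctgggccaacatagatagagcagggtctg
Igtp, chr11:58199306-58199605, plus strand: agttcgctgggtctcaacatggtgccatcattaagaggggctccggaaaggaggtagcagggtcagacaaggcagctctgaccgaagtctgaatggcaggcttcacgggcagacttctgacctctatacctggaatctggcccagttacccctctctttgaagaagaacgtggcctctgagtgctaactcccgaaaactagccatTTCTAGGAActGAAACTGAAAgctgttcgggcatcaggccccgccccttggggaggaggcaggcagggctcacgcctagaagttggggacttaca

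The Gbp2 and Irgm1 windows held ISRE-type matches and no GAS match, while Gbp5 held 2 GAS matches and 1 ISRE-type match. In Irgm2 and Igtp, which overlap in the annotation, a GAS match sat just before an ISRE-type match, and these windows shared an identical run of 61 bases. Such a match is a feature of the sequence and does not show that a factor was bound in these cells.

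The summed level of the 10 genes differed widely between experiments. It was 440 to 474 CPM on average in the 5 WT CD4+ groups, with single libraries from 383 to 529 CPM, and 698 to 945 CPM in the 5 null CD4+ groups, with libraries from 463 to 1200 CPM. In splenic T cells with IL it was 3440 ± 1030 CPM (SD, n = 4) for WT, 2650 ± 939 CPM (SD, n = 4) for Y665H and 6070 ± 1530 CPM (SD, n = 4) for Y665F, and it was 901 ± 116 CPM (SD, n = 3) for Y665F without interleukin. Spleens held 1110 ± 177 CPM (SD, n = 4) for WT, 875 ± 93.2 CPM (SD, n = 5) for Y665H and 1100 ± 85.8 CPM (SD, n = 7) for Y665F. The null and WT CD4+ groups overlapped in their single libraries, as did WT and Y665H T cells with IL. Y665F T cells with IL (lowest library 3940 CPM) also overlapped with WT T cells with IL (highest library 4820 CPM). WT spleens overlapped with both other spleen genotypes, while every Y665F spleen (1020 to 1280 CPM) was above every Y665H spleen (734 to 995 CPM). The experiments were scaled separately and are set side by side only as a description. In tissue as in sorted cells, fewer cells of an expressing type and less RNA per cell cannot be told apart.

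**Figure D1:**
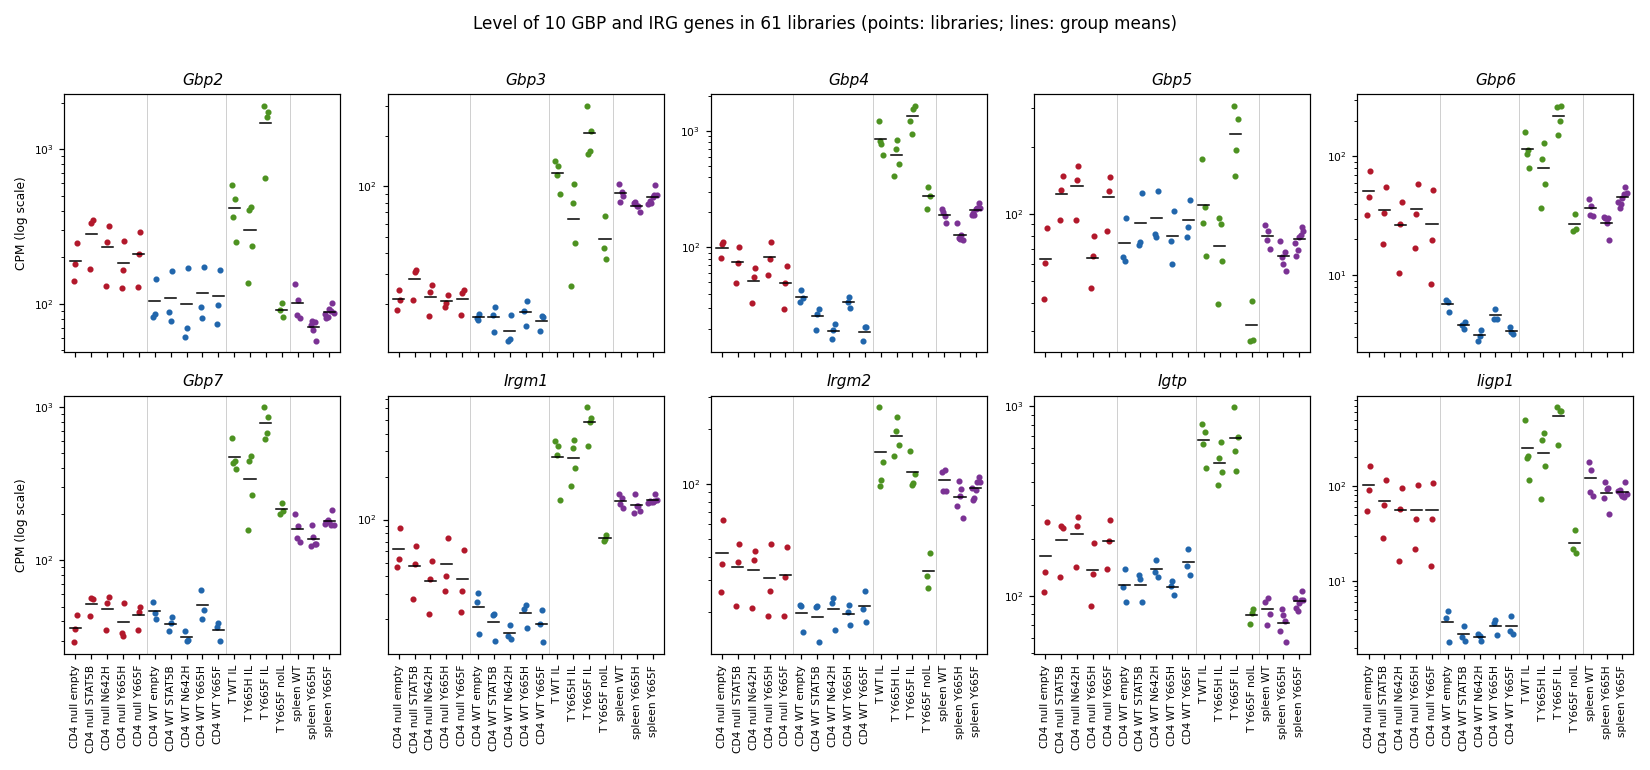
Level of each of the 10 genes in 61 libraries, in CPM on a log scale, with 1 panel per gene, 1 point per library and a line at each group mean. Red points are null CD4+ T cells, blue points WT CD4+ T cells, green points splenic T cells and purple points spleens. Iigp1 and Gbp6 separate null from WT CD4+ T cells, and all 10 genes are lower in Y665F T cells without interleukin than with it.

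Levels of different genes can be compared only per length, and per kilobase of exon Igtp and Gbp2 held the first 2 places in every group except Y665F T cells without interleukin, where Gbp7 came second. In WT CD4+ T cells with the empty vector, Igtp stood at 56.3 and Gbp2 at 41.5 CPM per kb, while Gbp6 stood at 0.959 and Iigp1 at 0.644 CPM per kb, the lowest of the 10. In WT splenic T cells with IL the first places were again Igtp (328 CPM per kb) and Gbp2 (166 CPM per kb), followed by Gbp4 (114 CPM per kb), and Gbp5 came last (16.6 CPM per kb). With the empty vector, Iigp1 was thus in last place in WT and in place 3 in null CD4+ T cells (17.7 CPM per kb), it was in place 4 in the null groups with a construct, and it held place 6 in WT splenic T cells with IL (43.6 CPM per kb).

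The first comparison asked what CD4+ T cells without STAT5 express. With the empty vector, 5 of the 10 genes were higher in null than in WT cells, namely Iigp1, Gbp6, Gbp4, Irgm1 and Irgm2, and none was lower. Here and below a gene was called, and is said to be higher or lower in a comparison, at an adjusted p under 0.05 in edgeR's quasi-likelihood test (Benjamini-Hochberg over all genes tested) and an absolute log2 fold change over 1, unless the adjusted p alone is named. Iigp1, an effector IRG, stood at 54.9, 91.5 and 162 CPM in the 3 null libraries and at 4.13, 4.83 and 2.28 CPM in the 3 WT libraries, a log2 fold change of 4.78 (SE, the standard error, 0.68 and adjusted p = 1.9e-05) or 27.5-fold. Gbp6, whose counts may include reads of Gbp10 and Gm43302, stood at 32.2, 45.8 and 76 CPM against 6.18, 5.98 and 4.96 CPM (log2 fold change 3.16, SE 0.52, adjusted p = 1.2e-04). The lowest null library was above the highest WT library by a wide margin in both genes.

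This separation held across vectors. Over all 15 null libraries Iigp1 ranged from 14.3 to 162 CPM, and over all 15 WT libraries from 2.28 to 4.83 CPM. The corresponding ranges of Gbp6 were 8.5 to 76 CPM and 2.82 to 6.18 CPM. Gbp4 stood at 80.3, 106 and 111 CPM in null and at 33.8, 43.1 and 36.5 CPM in WT cells with the empty vector (log2 fold change 1.38, SE 0.28, adjusted p = 0.001). The regulators Irgm1 (62.4 against 24.3 CPM, log2 fold change 1.35, adjusted p = 0.014) and Irgm2 (42 against 19.6 CPM, 1.09, adjusted p = 0.039) were nearer to the threshold. Irgm1 lost its call without null replicate 3 (log2 fold change 0.99, adjusted p = 0.11) or WT replicate 3 (1.13, adjusted p = 0.062), and Irgm2 lost it without any 1 of 5 of the 6 libraries (lowest log2 fold change 0.62, adjusted p = 0.27, without null replicate 3).

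Gbp2, Gbp3, Gbp5, Gbp7 and Igtp were not called, with log2 fold changes between -0.38 (Gbp7, 36.2 against 46.8 CPM) and 0.86 (Gbp2, 190 against 104 CPM). Of the 10 genes, the 4 in the chromosome 3 cluster were thus all among those not called, and both in the chromosome 5 cluster were called. That is no test of a difference between the clusters, which hold other genes as well. Among the 21975 genes tested, 4.68% were called and 2.55% were called and higher in null cells. The null libraries lay above the WT libraries without overlap in 6 of the 10 genes (the 5 called and Gbp3), as they did in 13.4% of all genes tested. The median log2 fold change was 0.97 over the 10 genes and -0.12 over all genes. Null and WT cells came from different mice, and a difference of culture day or sort cannot be told apart from the deletion.

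Among the other GBP and IRG genes, 16 of the 20 listed were tested, and 8 were higher and 1 was lower in null cells. The largest differences were those of the IRG genes Gm4841 (9.75 against 0.194 CPM, log2 fold change 5.63) and F830016B08Rik (3.53 against 0.0731 CPM) and of Gbp10 (12.8 against 0.437 CPM, 4.86), which shares much of its sequence with Gbp6. Gm4951, Gbp9, Tgtp2, Tgtp1 and Gbp8 followed with log2 fold changes from 3.57 to 1.12, and Gbp11 was lower (0.416 against 1.3 CPM, log2 fold change -1.67).

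Genes of interferon-γ signalling were called as well. Ifng itself rose from 0.193 to 2.06 CPM (log2 fold change 3.4, adjusted p = 0.0022) and Irf1 from 32.3 to 149 CPM (2.2, adjusted p = 4.2e-04). The change of Ifng rests on few reads, with 9, 6 and 9 in the WT and 28, 77 and 94 in the null libraries. Socs1, which encodes an inhibitor of JAK kinases and is also induced by STAT5, fell from 131 to 14.6 CPM (log2 fold change -3.17, adjusted p = 5.9e-07). Irf8 stood at 76.7 CPM in null and 37.5 CPM in WT cells and was not called (adjusted p = 0.21). Of 16 interferon-γ targets outside the GTPases, 0 were higher and 1 (Socs3) was lower by edgeR's test, with a median log2 fold change of 0.38, and of 16 type I interferon targets 0 were higher and 2 (Ifit3 and Ifit2) were lower. All 8 STAT5 target genes listed were lower, by a median of -3.24 on the log2 scale.

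Other cell type markers moved in the same comparison. Nkg7, a gene of effector T and NK cells, stood at 166 CPM in null and 14.1 CPM in WT cells (log2 fold change 3.55, adjusted p = 2.1e-06), the only call among 10 such markers, whose summed level was 137 to 341 CPM against 27.8 to 65.9 CPM. Cd8b1 was higher as well (17.5 against 7.01 CPM, log2 fold change 1.3), while Cd8a stood at 0.209 and 0.0741 CPM. The 12 T cell markers had no call, and the macrophage markers summed to 4.31 to 10.5 CPM in null and 3.88 to 5.63 CPM in WT cells, with C1qa and C1qb at 0 in the empty-vector libraries of both backgrounds. The part of these markers in the difference of the GBP and IRG genes was not tested.

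**Figure D2:**
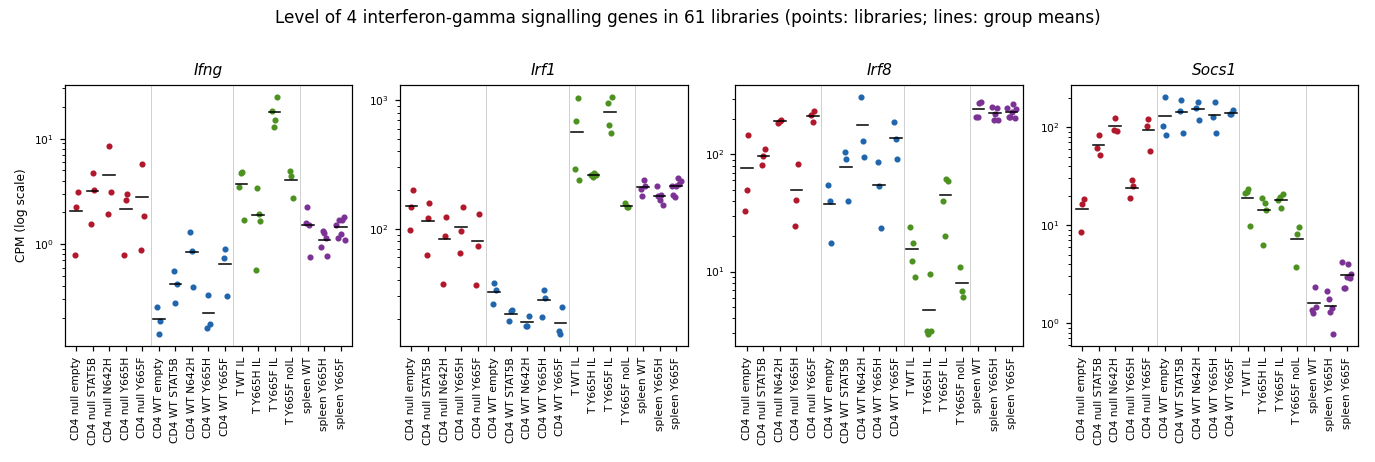
Level of 4 interferon-γ signalling genes in 61 libraries, in CPM on a log scale, with 1 point per library and a line at each group mean. In null CD4+ T cells (red), Irf1 lies above its level in WT CD4+ T cells (blue) with the empty vector, and Socs1 lies below it. In splenic T cells (green), Ifng and Irf1 are lower without interleukin than with it in Y665F cells.

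The next comparison asked what each STAT5B construct did to these genes in null cells. Against the empty vector, 1 of the 10 genes was called with N642H and 1 with Y665F, and 0 with STAT5B or Y665H. Gbp5 was higher with N642H, at 93.8, 142 and 165 CPM against 41.7, 60.3 and 87.2 CPM (log2 fold change 1.04, SE 0.28, adjusted p = 0.022), and no N642H library lay below an empty-vector library. Gbp4 was lower with Y665F, at 29.8, 49.7 and 69.1 CPM against 80.3, 106 and 111 CPM (log2 fold change -1.04, SE 0.32, adjusted p = 0.044), again without overlap. Such separation was common, since of 20113 genes tested 2679 were higher without overlap with N642H and 2420 were lower without overlap with Y665F.

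All genes tested were called at 2.88% with N642H, 2.37% with Y665F, 0.477% with STAT5B and 0.0249% with Y665H, and 1 call among 10 genes is a small count to set beside these shares. Other libraries decided other calls, since Gbp5 was called with STAT5B (1.28, adjusted p = 0.023) and Y665F (1.23, adjusted p = 0.01) without empty-vector replicate 3, Gbp4 with N642H without N642H replicate 3 (-1.14, adjusted p = 0.043), Gbp5 with Y665F without Y665F replicate 1 (1.08, adjusted p = 0.044) and Gbp6 with Y665F without Y665F replicate 3 (-1.91, adjusted p = 0.049). The Gbp5 call with N642H was lost without empty-vector replicate 1 or 2 or N642H replicate 2 or 3 (adjusted p between 0.063 and 0.082), and the Gbp4 call with Y665F without empty-vector replicate 2 or 3 or Y665F replicate 1 or 2 (adjusted p between 0.11 and 0.21) and with RLE size factors (adjusted p = 0.056). With STAT5B, 3 genes passed an unadjusted p of 0.05 and DESeq2 called 0, and with Y665H 0 genes passed it and DESeq2 called 0. The constructs share the empty-vector libraries, so their values are not independent of each other.

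Null libraries with the same replicate number deviated together from their group means, and the replicate number as a block sharpened these comparisons. With the replicate block, Gbp5 was higher with STAT5B (log2 fold change 1, adjusted p = 9.9e-07) and N642H (1.07, adjusted p = 1.2e-07), and it reached 0.91 (adjusted p = 1.2e-06), below the fold-change minimum, with Y665F. Gbp4 was lower with N642H (-1.02, adjusted p = 8.3e-07) and Y665F (-1.11, adjusted p = 3.6e-07). Gbp6 (-1.11 and -1.21) and Iigp1 (-1.08 and -1.21) were lower with the same 2 constructs, and Iigp1 was lower with Y665H (-1.01, adjusted p = 0.0062). The block thus called 4 of the 10 genes for N642H, 3 for Y665F and 1 each for STAT5B and Y665H, beside 3.76%, 3.23%, 1.01% and 0.104% of all genes.

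Iigp1 stood at 54.9, 91.5 and 162 CPM with the empty vector. With N642H it was at 16.5, 57.8 and 94.9 CPM and with Y665F at 14.3, 44.7 and 108 CPM. With Y665H it was at 21.6, 45.4 and 103 CPM and with STAT5B at 28.4, 62.7 and 116 CPM. Within each replicate number every construct was below the empty vector, but over all libraries the groups overlapped. None of the constructs brought Iigp1 near its WT level of 2.28 to 4.83 CPM. For Gbp6 the lowest null libraries with a construct, at 8.5 CPM (Y665F replicate 1) and 10.4 CPM (N642H replicate 1), came closer to the highest WT library (6.18 CPM) without reaching it.

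**Figure D3:**
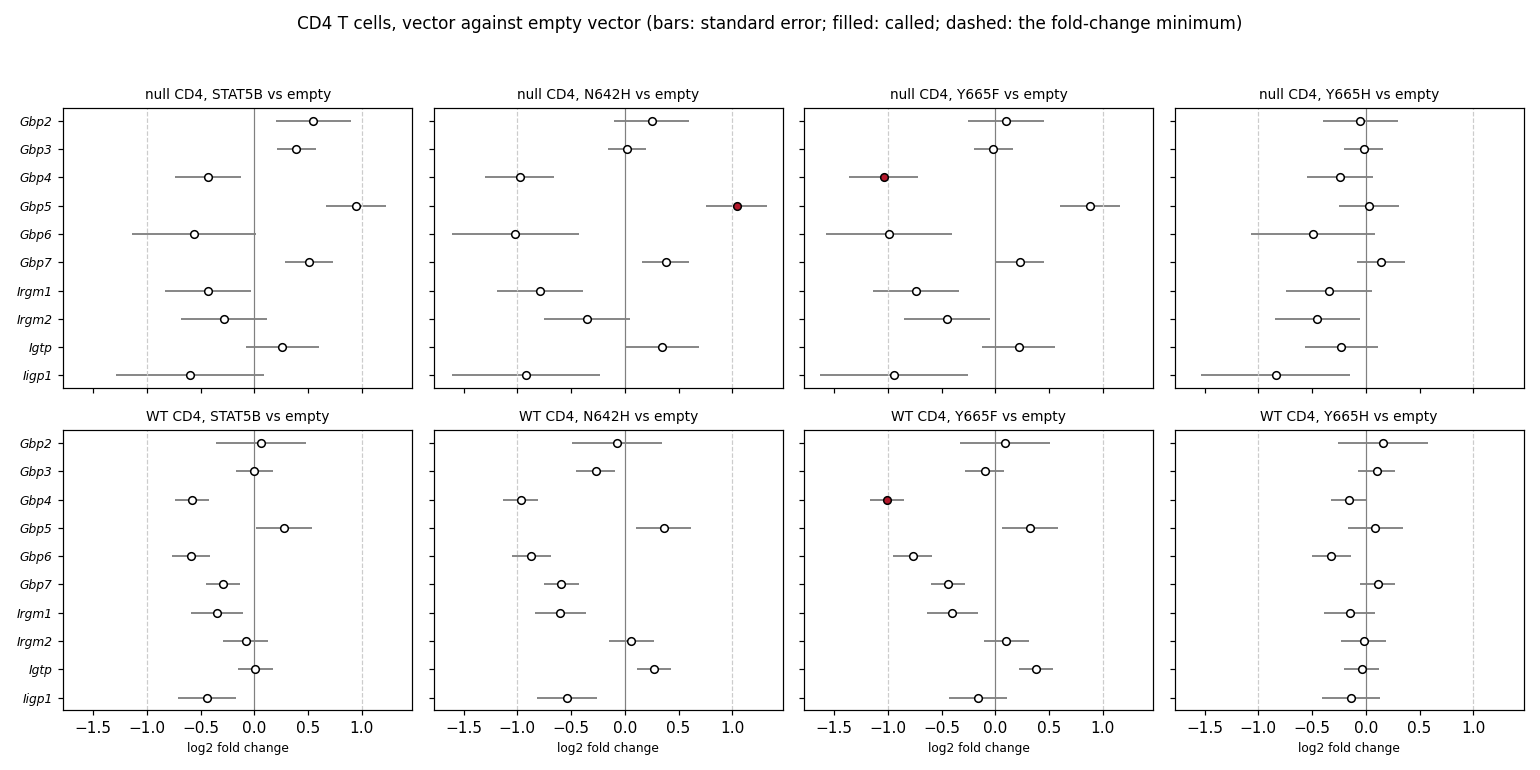
Log2 fold change of the 10 genes with each vector against the empty vector in null (top row) and WT (bottom row) CD4+ T cells, with bars of 1 standard error. Filled points passed the adjusted p of 0.05 and the log2 fold change of 1 (dashed lines), namely Gbp5 with N642H and Gbp4 with Y665F in null cells and Gbp4 with Y665F in WT cells.

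In WT cells, which keep their own STAT5, Gbp4 was lower with Y665F, at 15.8, 20.5 and 20.5 CPM against 33.8, 43.1 and 36.5 CPM with the empty vector (log2 fold change -1.01, SE 0.16, adjusted p = 0.0064). With N642H it stood at 16.2, 19.5 and 22.1 CPM (log2 fold change -0.97, SE 0.16, adjusted p = 0.0062), just short of the fold-change minimum and therefore not called. It was called with N642H without empty-vector replicate 1 or 3 or N642H replicate 3 (log2 fold change -1 to -1.08). Every N642H and Y665F library was below every empty-vector library, and so was every library with STAT5B (19.7, 27 and 29.8 CPM, log2 fold change -0.58, not called). With N642H and with Y665F, 3 of the 10 genes (Gbp4, Gbp6 and Gbp7) were below every empty-vector library. Of all genes tested, 3.15% were below every empty-vector library with STAT5B, 7.99% with N642H and 8.27% with Y665F. Gbp6 was likewise at 3.57 to 4.08 CPM with STAT5B and at 4.96 to 6.18 CPM with the empty vector (log2 fold change -0.59, not called). Gbp6, at 5.71 CPM with the empty vector, stood at 3.14 CPM with N642H (log2 fold change -0.87, adjusted p = 0.022) and 3.4 CPM with Y665F (-0.77, adjusted p = 0.049).

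By the adjusted p alone, 2 of the 10 genes were lower with N642H and 2 with Y665F, beside 0.522% and 0.512% of all genes. By the full rule 1 gene was called with Y665F and 0 with N642H, STAT5B and Y665H, beside 0.707%, 0.985%, 0.00975% and 0.00488% of all genes. DESeq2 called the same numbers, and 4, 2 and 0 of the 10 genes passed an unadjusted p of 0.05 with N642H, STAT5B and Y665H. The Gbp4 call with Y665F was lost without empty-vector replicate 2 (-0.93, adjusted p = 0.063) or Y665F replicate 1 (-0.9, adjusted p = 0.051). WT libraries of the same replicate number also deviated together in 29 of 30 pairs (median r 0.65), and the counts above use no block. With the replicate block, Gbp7 and Irgm1 (lower) and Gbp5 (higher) also passed the adjusted p alone with N642H and with Y665F. So did Igtp (higher) with Y665F and Gbp4 (lower) with STAT5B. All of these stayed short of the fold-change minimum.

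Relative to the STAT5B construct, edgeR called 0 of the 10 genes with N642H, Y665F or Y665H in either background. In null cells the shares over all genes were 0.0696%, 0.00994% and 0.149%, and 0, 1 and 2 of the 10 genes passed an unadjusted p of 0.05. In WT cells the shares were 0.00488%, 0% and 0.00488%, with 1, 2 and 2 genes past an unadjusted p of 0.05. DESeq2 called 0 of the 10 genes in each of these comparisons.

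Whether the response to a construct differed between backgrounds was tested as an interaction. For N642H and for Y665F, 0 of the 10 genes were called by edgeR or DESeq2, beside 0.341% and 0.419% of all genes, and 1 of the 10 passed an unadjusted p of 0.05 for each. The largest difference was that of Gbp7 for N642H, whose log2 fold change was 0.38 in null and -0.59 in WT cells (interaction 1.02, SE 0.29, adjusted p = 0.15). For Gbp4 the interaction was 0.06 with N642H and 0.01 with Y665F, each with an SE of 0.39.

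Gbp5 and Gbp4 moved apart within each library. Their ratio of counts, which was chosen after the values were seen and is given without a test, was 0.519 to 0.785 in null cells with the empty vector and 0.717 to 0.826 with Y665H. It was 1.47 to 1.91 with STAT5B, 2.47 to 2.82 with N642H and 2.13 to 2.81 with Y665F. In WT cells it was 1.43 to 2.64 with the empty vector, 1.59 to 3.37 with Y665H, 2.78 to 4.19 with STAT5B, 4.06 to 5.74 with N642H and 4.27 to 5.65 with Y665F. The order of the means, with the empty vector lowest, Y665H next, then STAT5B, and N642H and Y665F on top, was the same in both backgrounds, and N642H and Y665F overlapped in each. The ratio was far lower in splenic T cells (0.0977 to 0.256 over all 15 libraries) and in spleens (0.331 to 0.534).

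**Figure D4:**
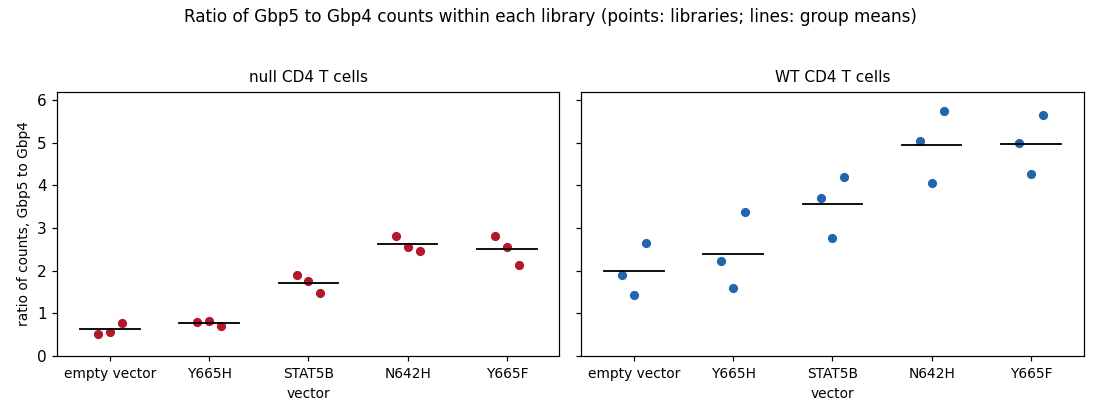
Ratio of Gbp5 to Gbp4 counts in each CD4+ T cell library, by vector, in null (left) and WT (right) cells, with 1 point per library and a line at each mean. The mean ratio is lowest with the empty vector and Y665H, intermediate with STAT5B and highest with N642H and Y665F in both panels.

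Other members of the families were also called in the CD4+ T cells. With N642H and with Y665F in WT cells, 5 of the 16 other GBP and IRG genes tested were lower and 0 were higher, namely 9930111J21Rik1 (log2 fold changes -1.6 and -1.47), Tgtp1 (-1.35 and -1.38), Gbp9 (-1.27 and -1.19), Tgtp2 (-1.2 and -1.05) and Gbp8 (-1.01 and -1.24). In null cells, 2 were higher and 2 lower with N642H, and 1 was higher and 3 were lower with Y665F. Gbp9 (log2 fold changes -1.27 and -1.3) and 9930111J21Rik1 (-1.1 and -1.05) were lower with both constructs, and Gbp11 was higher with both (2 and 1.77) at levels of 1.45 to 1.69 CPM.

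Of the interferon-γ signalling genes, those most often called were Socs1 and Irf8. In null cells Socs1 was higher with STAT5B (66.3 against 14.6 CPM), N642H (103 CPM) and Y665F (93.8 CPM) and not called with Y665H (24.2 CPM), while Irf1 stood at 80 to 115 CPM with the 4 constructs against 149 CPM and was not called. Irf8 was higher with Y665F (213 against 76.7 CPM, log2 fold change 1.41, adjusted p = 0.046) and, in WT cells, with N642H (178 against 37.5 CPM, 2.24). It also stood at 192 CPM with N642H in null cells and at 139 CPM with Y665F in WT cells, and it was called in neither. The response of Socs1 differed between backgrounds, with interactions of 2.63 for N642H (adjusted p = 0.0039) and 2.61 for Y665F (adjusted p = 0.0042). Ifng was not called with any vector in either background.

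The third comparison set splenic T cells cultured with IL-2 and IL-7 against T cells without interleukin, and it could be made in Y665F cells only. The cells without interleukin were taken straight after isolation, so the interleukins and the time in culture cannot be told apart. All 10 genes were higher with IL than without, and no library with IL lay below a library without. Igtp, an IRG regulator, stood at 990, 582, 457 and 686 CPM with IL and at 70.8, 81.3 and 85.3 CPM without (log2 fold change 3.1, SE 0.28, adjusted p = 3.3e-07). Iigp1 stood at 672, 270, 608 and 613 CPM against 21.9, 34.4 and 19.9 CPM (log2 fold change 4.41, SE 0.52, adjusted p = 1.1e-05), or 21.2-fold. Gbp2 stood at 1910, 650, 1610 and 1730 CPM against 91.2, 101 and 82.8 CPM (log2 fold change 4.01, SE 0.41, adjusted p = 1.4e-06).

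Replicate 2 was the lowest library with IL in each of the 10 genes except Igtp. In Gbp2 and Iigp1 even replicate 2 was several-fold above the libraries without IL. In Gbp3 it stood at 155 CPM, against 66.3 CPM in the highest library without IL. The smallest differences of the 10 were those of Irgm2 (116 against 33.4 CPM, log2 fold change 1.8) and Gbp7 (794 against 216 CPM, 1.87), and Gbp3, Gbp4, Irgm1, Gbp5 and Gbp6 lay between, from 2.1 to 3.02. Among all genes, 2.97% were called, 2.27% were called and higher, and 7.31% were higher without overlap. The median log2 fold change was 2.78 over the 10 genes and -0.13 over all genes. All 10 calls were kept in each of the 16 alternatives run for this comparison, among them leaving out each library and leaving out the libraries of lowest depth or of highest B cell and erythroid markers.

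Of the 16 other GBP and IRG genes tested, 7 were higher and 0 lower, led by Gbp11 (370 against 14.1 CPM, log2 fold change 4.7), Gbp10 (44.5 against 2.48 CPM, 4.19) and the IRG gene Gm12250 (269 against 19.8 CPM, 3.76). Interferon-γ signalling genes rose too. Irf1 stood at 807 CPM with IL and 151 CPM without (log2 fold change 2.41, adjusted p = 2.3e-04), Ifng at 17.8 and 4.03 CPM (2.15, adjusted p = 0.0019) and Irf8 at 45.3 and 7.93 CPM (2.51, adjusted p = 8.4e-04). Stat2, Irf9 and Socs1 were also called. Of 16 interferon-γ targets outside the GTPases, 10 were higher, among them the chemokine gene Cxcl10 (log2 fold change 3.44) and Serpina3g (3.18), and all 8 STAT5 target genes were higher.

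Markers of effector T and NK cells rose in 6 of 10 cases in this comparison, led by Gzmb (347 against 5.58 CPM, log2 fold change 5.95), and their summed level was 734 to 1500 CPM with IL and 320 to 444 CPM without. The 8 B cell markers had no call and summed to 19.8 to 712 CPM with IL and 29.2 to 46.4 CPM without. For macrophage and monocyte markers the sums were 118 to 383 and 125 to 334 CPM. The part of these markers in the rise of the GBP and IRG genes was not tested, and without the 2 Y665F libraries highest in B cell and erythroid markers the log2 fold changes of the 10 genes were 1.9 to 4.21.

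**Figure D5:**
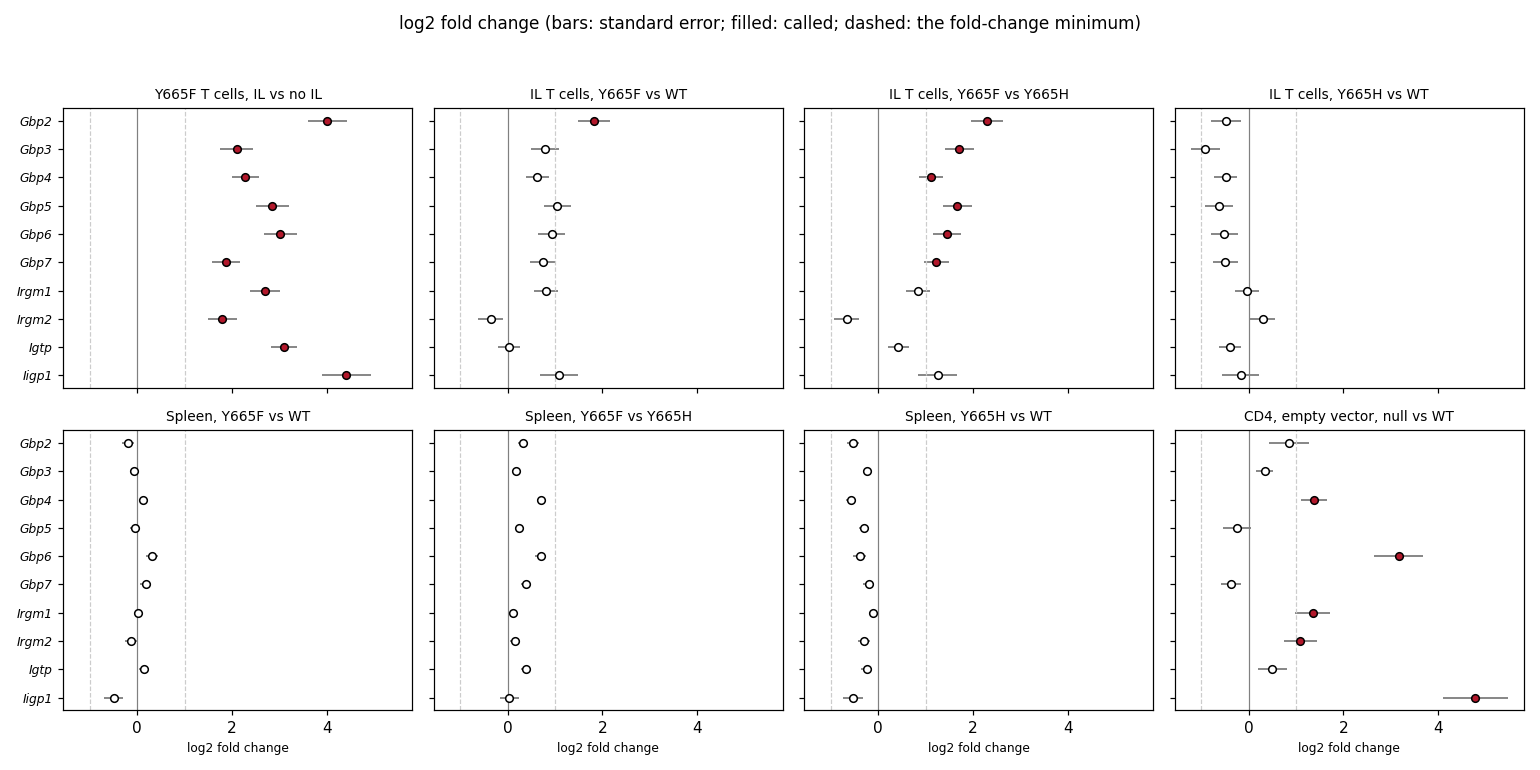
Log2 fold change of the 10 genes in splenic T cells, spleens and CD4+ T cells with the empty vector, 1 panel per comparison, with bars of 1 standard error. Filled points passed the adjusted p of 0.05 and the log2 fold change of 1 (dashed lines). All 10 points are filled for IL against no IL, 6 for Y665F against Y665H in T cells with IL, and none in the 3 spleen panels.

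The fourth comparison set the genotypes side by side in T cells with IL. Against WT, 1 of the 10 genes was called in Y665F cells and 0 in Y665H cells. Gbp2 stood at 1910, 650, 1610 and 1730 CPM in Y665F and at 582, 365, 473 and 252 CPM in WT cells (log2 fold change 1.82, SE 0.33, adjusted p = 0.0058), and every Y665F library was above every WT library. The other 9 genes had log2 fold changes from -0.36 (Irgm2) to 1.09 (Iigp1) in Y665F cells, and Gbp5 (229 against 110 CPM, 1.05, adjusted p = 0.06) and Gbp6 (219 against 115 CPM, 0.93, adjusted p = 0.091) were nearest to the threshold among the GBPs.

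In Y665F against WT cells 1.53% of all genes were called, and 2 of the 10 genes (Gbp2 and Gbp3) and 4.62% of all genes were higher without overlap. The count was 3 with DESeq2, with RLE size factors, with the filterByExpr filter and without the libraries of lowest depth, where Gbp5 and Gbp6 joined Gbp2, and 4 without WT replicate 1, where Iigp1 joined as well. Without Y665F replicate 2 it was 2, with Gbp5. Without Y665F replicates 3 and 4, the libraries highest in B cell and erythroid markers, it was 0, and the log2 fold change of Gbp2 was 1.61 (adjusted p = 0.14). In Y665H against WT cells the log2 fold changes lay between -0.91 (Gbp3) and 0.3 (Irgm2), 2 of the 10 genes passed an unadjusted p of 0.05, DESeq2 called 0, and 0.0717% of all genes were called.

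Between the 2 substitutions, 6 of the 10 genes were higher in Y665F than in Y665H cells, and they were the 6 GBPs, while none of the 4 IRGs was called. Gbp2 stood at 1910, 650, 1610 and 1730 CPM against 136, 402, 424 and 238 CPM (log2 fold change 2.3, SE 0.34, adjusted p = 1.9e-04). Gbp3 stood at 302, 155, 163 and 214 CPM against 25.7, 79.2, 104 and 46.2 CPM (1.71, SE 0.31, adjusted p = 0.0016), and Gbp5 at 307, 149, 194 and 267 CPM against 39.7, 95.8, 90.8 and 61.4 CPM (1.67, SE 0.3, adjusted p = 0.0013). In each of the 3 genes all Y665F libraries were above all Y665H libraries.

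Gbp6 (log2 fold change 1.45), Gbp7 (1.23) and Gbp4 (1.11) followed, with adjusted p from 0.0036 to 0.0074 and no overlap. Iigp1 (541 against 225 CPM, 1.26, adjusted p = 0.067) and Irgm1 (483 against 269 CPM, 0.84, adjusted p = 0.056) did not pass. Igtp stood at 679 and 505 CPM (0.43, adjusted p = 0.28), and Irgm2 was the 1 gene with a lower mean in Y665F cells (116 against 184 CPM, -0.66, adjusted p = 0.14). That GBPs passed and IRGs did not is no test of a difference between the families.

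Over all genes 4.78% were called, 3.43% were called and higher, and 9.36% were higher without overlap, and the median log2 fold change was 1.25 over the 10 genes and 0.13 over all. The depth of the Y665H libraries limits this comparison, since replicates 1, 2 and 4 held fewer than 6000000 reads, as did Y665F replicate 3. Without these 4 libraries a single Y665H library (replicate 3) was left, which was assumed to vary like the other groups, and 0 of the 10 genes were called, with log2 fold changes of 1.8 for Gbp2, 1.45 for Gbp5 and 1.15 for Gbp3 (adjusted p from 0.15 to 0.32) and of 0.85 for Gbp6, 0.84 for Gbp7 and 0.65 for Gbp4 (adjusted p from 0.53 to 0.78). Without Y665F replicates 3 and 4, 5 of the 6 calls were kept, and Gbp4 lost its call (0.8, adjusted p = 0.15). Gbp4 also fell short of the fold-change minimum without Y665H replicate 1 (0.98) or Y665F replicate 4 (0.99). Irgm1 (1.02, adjusted p = 0.032) and Iigp1 (1.59, adjusted p = 0.035) passed without Y665H replicate 3, and Iigp1 (1.49, adjusted p = 0.033) without Y665F replicate 2.

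In the same comparison 4 of the other GBP and IRG genes were higher and 1 was lower. Gbp10 (44.5 against 9.2 CPM, log2 fold change 2.26), Gm4841 (1.92), Gm4951 (1.71) and Gbp8 (298 against 110 CPM, 1.43) were higher, and 9930111J21Rik1 (17.4 against 55.2 CPM, -1.66) was lower. Against WT cells, Gbp10 (44.5 against 11.4 CPM, 1.97) and Gbp8 (1.02) were higher in Y665F cells.

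Ifng stood at 17.8 CPM in Y665F, 3.69 CPM in WT and 1.89 CPM in Y665H cells, and it was higher in Y665F than in WT (log2 fold change 2.26, adjusted p = 0.0032) and Y665H cells (3.31, adjusted p = 5.7e-05). Irf8 was higher in Y665F cells against both (1.53 and 3.12), as was Stat2 (1.1 and 1.14), and Irf1 was higher against Y665H (807 against 261 CPM, 1.63, adjusted p = 0.0032) and not called against WT (565 CPM, 0.51, adjusted p = 0.35). Socs1 (18.1, 19.1 and 14.1 CPM in Y665F, WT and Y665H cells) was called in neither comparison. In the Y665H libraries Ifng had 2, 7, 28 and 9 reads and Irf8 had 11, 6, 137 and 17 reads. Their differences against Y665H cells thus rest on few reads in most of these libraries.

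Markers of other cell types moved here too. Against Y665H, 5 of 8 B cell markers (Pax5 by 4.9 on the log2 scale), 7 of 10 effector T and NK markers (Gzmb by 4.71), 2 of the 4 erythroid markers tested and 2 of 7 neutrophil markers were higher in Y665F cells, and Cd28 was lower (118 against 342 CPM). Against WT, 1 B cell marker, 2 effector markers, 2 erythroid and 4 neutrophil markers were higher in Y665F cells, and Cd28 (118 against 264 CPM) and Cd4 (155 against 348 CPM) were lower. The effector T and NK markers summed to 734 to 1500 CPM in Y665F, 381 to 745 CPM in WT and 188 to 298 CPM in Y665H cells, and the T cell markers to 1540 to 3310, 3330 to 4140 and 3040 to 3460 CPM. Their part in the difference of the GBP genes was not tested beyond the counts without replicates 3 and 4.

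In whole spleens the differences were small. None of the 10 genes was called by edgeR or DESeq2 in Y665F against WT, Y665H against WT or Y665F against Y665H spleens, beside 1.2%, 4.37% and 5.28% of all genes, and 2, 8 and 7 of the 10 genes passed an unadjusted p of 0.05. Gbp4 stood at 162, 120, 118, 128 and 115 CPM in Y665H spleens, at 214, 199, 187 and 163 CPM in WT spleens and between 189 and 241 CPM, with a median of 214 CPM, in Y665F spleens. Every Y665H library was below every WT and Y665F library, with 162 and 163 CPM as the nearest values of Y665H and WT. Of the 19418 genes tested, 1245 were lower in every Y665H than in every WT spleen, among them Gbp2, Gbp4 and Gbp6. The log2 fold change of Gbp4 was -0.57 (SE 0.1, adjusted p = 0.0019) in Y665H against WT and 0.7 (SE 0.09, adjusted p = 5e-05) in Y665F against Y665H, short of the fold-change minimum of 1.

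By the adjusted p alone, 4 of the 10 genes were lower in Y665H than in WT spleens, namely Gbp2 (70.4 against 101 CPM, log2 fold change -0.53), Gbp4, Gbp5 (-0.3) and Gbp3 (-0.24), beside 9.05% of all genes. In Y665F against Y665H spleens 6 were higher, namely Gbp4, Gbp6 (45.1 against 27.8 CPM, 0.7), Gbp7 (0.38), Igtp (0.38), Gbp2 (0.33) and Gbp5 (0.25), beside 10.5% of all genes, and Gbp2, Gbp4 and Gbp6 were higher without overlap, as were 5.41% of all genes. In Y665F against WT spleens the log2 fold changes ran from -0.49 (Iigp1) to 0.31 (Gbp6), and the lowest adjusted p was 0.12. The family member Gbp2b, low in all spleens, was lower in Y665H than in WT spleens (1.81 against 4.57 CPM, log2 fold change -1.33, adjusted p = 0.0023) and higher in Y665F (6.09 CPM) than in Y665H spleens (1.75, adjusted p = 4.4e-05).

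Socs1 rose from 1.48 CPM in Y665H to 3.1 CPM in Y665F spleens (log2 fold change 1.07, adjusted p = 0.0025), and Irf1, Irf8 and Ifng had adjusted p of at least 0.054 in the 3 comparisons. The cell type markers of the spleens differed more. In Y665H against WT, 4 of 6 erythroid markers tested (Slc4a1 1980 against 373 CPM) and 7 of 7 neutrophil markers were higher, and 4 of 10 effector T and NK markers were lower, while 6 of 12 T cell markers were higher in Y665F than in Y665H spleens (Cd3e 80.6 against 29.8 CPM). The erythroid sums were 759 to 5050 CPM in Y665H, 708 to 1560 CPM in WT and 442 to 1450 CPM in Y665F spleens. The neutrophil sums were 120 to 1540 CPM in Y665H, 194 to 316 CPM in WT and 389 to 951 CPM in Y665F spleens. The part of these cell type markers in the lower GBP levels of Y665H spleens was not tested.

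Over the 17 groups, some genes outside the lists of GBP and IRG genes used here followed the mean of the 10 genes closely. Among 10825 genes compared, they were Erap1 (Pearson r = 0.937), Gm12185 (0.915), Secisbp2 (0.915) and Med1 (0.914). Erap1 encodes an aminopeptidase that trims peptides for MHC class I. The lists may not hold every gene of the families. These points are group means of log2 values that share libraries, tissue and scaling, and the values are descriptions. Among the 10 genes themselves, Irgm1 followed the mean of the others most closely (0.906), and Gbp6 (0.894), Gbp4 (0.874) and Iigp1 (0.873) came next. Gbp5 had the lowest value (0.0631), with group means of 63 to 134 CPM in CD4+ T cells, 71.9 to 229 CPM in T cells with IL and 31.7 CPM in Y665F T cells without interleukin.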

How the data were processed

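RNA-seq libraries (TruSeq Stranded Total RNA with Ribo-Zero Gold, paired-end) were processed by the authors with FastQC 0.11.9, Trimmomatic 0.36, STAR, SAMtools 1.9, Picard 2.9.2 and HTSeq 0.9.1 against mm10, per the labels, and deposited as raw counts per gene. The strand setting and annotation of the counting are not given in the sources used here. The closing lines of each file, which name no gene and held 28.4 to 85.7% of the counted reads, were left out.

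Counts were fitted with edgeR 4.0.16 (quasi-likelihood test, TMM, R 4.3.3) on genes with at least 10 reads over the fit, separately for null CD4+, WT CD4+, both together, splenic T cells and spleens. A gene was called at a Benjamini-Hochberg adjusted p under 0.05 and an absolute log2 fold change over 1. DESeq2 1.42.0, other scalings, filters, a replicate block and left-out libraries were alternatives. The rule for other genes named was a call within fixed lists, or, for likeness, the 5 highest correlations across the 17 group means of log2(CPM + 1), of which 1 is not reported here. The genes and lists were chosen with earlier results of these data known. The fits were tested on simulated data.

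Null CD4+ libraries of the same replicate number deviated together (30 of 30 pairs with r above 0.1, median 0.47), so the block is given beside those results. The other libraries did not meet this rule (29 of 30 pairs in WT CD4+, 5 of 21 in splenic T cells, 4 of 13 in spleens). No libraries of a group agreed within sampling noise.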

Additional observations from a re-analysis of the deposited data

Results flagged for a closer look

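Dixon's test at the 95% level was run on each of the 10 genes in the groups of 4 to 10 libraries, and 5 of 60 tests marked a library that stood apart, where chance marks about 1 in 20. Gbp4 in spleen Y665H replicate 1 stood at 162 CPM, above the other 4 libraries at 115 to 128 CPM. In spleen Y665F, replicate 6 was the highest library in all 10 genes. The test marked it in 3 of them, with 214 CPM of Gbp7, 151 CPM of Irgm1 and 111 CPM of Iigp1. These 3 marks come from 1 library and are not independent of each other. Iigp1 in splenic T cells Y665F IL replicate 2 was the lowest, at 270 CPM.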

How the results depend on the processing

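Of the counts of called genes, 156 of 168 planned settings, 4 of 7 settings added after the data were seen and 161 of 177 settings that leave out 1 library stayed within 1.5 times, and no gene changed direction where it was called. Most comparisons had a main count of 0, and a count that stays at 0 is unchanged. These shares therefore say little about how stable the calls are, and the changed counts are given below. With the replicate block, the null CD4+ counts were 1 for STAT5B, 4 for N642H, 3 for Y665F and 1 for Y665H, and the block changed no other call. In WT CD4+ cells, where 29 of 30 pairs deviated together (median r 0.65), it took more genes past the adjusted p alone, with the log2 fold change short of 1. These were Gbp7 (0.0054), Irgm1 (0.0047) and Gbp5 (0.023) for N642H and Gbp7 (0.034), Irgm1 (0.04), Gbp5 (0.026) and Igtp (0.012) for Y665F, with Gbp5 and Igtp higher and the others lower, and Gbp4 (0.0097, lower) for STAT5B. With RLE size factors the count for Y665F in null cells was 0. With no fold-change minimum it was 2 for N642H and 2 for Y665F in WT CD4+ cells, 4 for Y665H against WT spleens and 6 for Y665F against Y665H spleens. For Y665F against WT T cells it was 3 with RLE size factors, 3 with DESeq2, 3 with filterByExpr, 3 without the libraries under 6000000 reads and 0 without the Y665F libraries highest in B cell and erythroid markers. For Y665F against Y665H T cells it was 0 without the libraries under 6000000 reads. That fit keeps 1 Y665H library, and the cause of the other changes was not tested.

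Leaving out 1 library gave counts of 0 to 1 for STAT5B, 0 to 1 for N642H and 0 to 2 for Y665F in null cells, 0 to 1 for N642H and 0 to 1 for Y665F in WT cells, 3 to 5 for null against WT cells, 1 to 4 for Y665F against WT T cells and 5 to 8 for Y665F against Y665H T cells. With library totals in place of TMM, 166 of 170 group levels moved by less than their spread, and 4 moved, all in Y665F T cells without interleukin (Gbp2 to 104, Gbp7 to 245, Irgm1 to 83.9 and Igtp to 89.1 CPM). Depth limits mainly the Y665H T cells, of which 3 of 4 libraries were under 6000000 reads.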

Other observations

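Type I interferon targets were called beside the GBP genes in splenic T cells. Of 16 such genes, 7 were higher in Y665F than in WT cells with IL, among them Rsad2 (92 against 4.42 CPM, log2 fold change 4.35, adjusted p = 0.023 by edgeR), Oasl2 (51.3 against 8.9 CPM, 2.52) and Oas2 (41.8 against 8.7 CPM, 2.26), and their median log2 fold change was 1.37. Against Y665H cells 10 of the 16 were higher, and 9 were higher in cultured Y665F cells with IL than in uncultured cells without. In spleens few of them were called. In Y665F against WT, 1 was higher (Oas2, 49 against 22.4 CPM) and the median log2 fold change was 0.48. In Y665H against WT, 2 were higher (Isg15 and Rsad2, the latter 523 against 226 CPM) and the median log2 fold change was 0.04, and in Y665F against Y665H, 1 was lower (Rsad2, 188 against 523 CPM) and the median was 0.38. In CD4+ T cells, Ifit3 was lower in null than in WT cells (0.576 against 3.16 CPM, log2 fold change -2.46) and higher with N642H (2.84 CPM) and Y665F (2.18 CPM) in null cells.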
